A study of Mus musculus with 12 samples.

Results

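Expression of 9 genes that define or mark macrophages was followed across 12 mouse arrays. They were taken from a list of macrophage lineage factors and markers, by gene symbol: Spi1, Cebpb, Maf and Gata6 encode transcription factors, Csf1r and Adgre1 cell surface receptors, Lyz2 and Cd68 products of the phagocytic and lysosomal apparatus, and Aif1 an actin-binding protein. All 9 were found, each by 1 probe set listed for that gene alone, among 19938 genes tested.

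The arrays measured thioglycollate-elicited peritoneal macrophages from C57BL/6 mice fed a high-fat (HF) or chow diet for 12 weeks, starting when the animals were 6 weeks old. The cells were given red blood cells (RBC) of HF-fed or chow-fed mice to engulf, or none. There were therefore 6 groups, each of 2 arrays with a replicate number. They were HF macrophages with HF RBC, with chow RBC and without RBC, and chow macrophages with HF RBC, with chow RBC and without RBC. Whether a number marks the same animal across groups is not stated in the labels. The labels describe collection by lavage and no sorting step, so other peritoneal cells can be present, and cells elicited with thioglycollate are a recruited population.

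Macrophage identity is held by a small set of transcription factors. PU.1, encoded by Spi1, is needed to form the myeloid lineage and binds the Csf1r gene; C/EBP beta, encoded by Cebpb, acts with it on myeloid genes; c-Maf, encoded by Maf, restrains growth of mature macrophages; and GATA6 directs the programme of resident macrophages in the peritoneal cavity. Csf1r is the receptor for the growth factor CSF1, on which macrophages depend for survival. Adgre1 encodes the adhesion G protein-coupled receptor recognised by the classical mouse macrophage antibody F4/80, Cd68 encodes a heavily glycosylated late endosomal protein, Lyz2 the bacteriolytic enzyme lysozyme of myeloid cells, and Aif1 the calcium-binding protein IBA1, which takes part in membrane ruffling and phagocytosis.

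Promoters could be matched by symbol for 4 of the 9 members, Aif1, Lyz2, Cd68 and Cebpb, and the other members were not searched. Those of the first 3 are shown. Of the 9 genes Aif1 had the widest range over the 12 arrays, Lyz2 and Cd68 the narrowest. Each sequence runs from 250 bases before to 50 bases after the annotated start (RefSeq, GRCm38.p6, gene strand). Capitals mark letters that match the short motifs searched on both strands, GAGGAA for PU.1, TTGCNNA for C/EBP, TGCTGA for Maf and AGATAA for GATA factors.
Aif1, chr17:35176003-35176302, minus strand: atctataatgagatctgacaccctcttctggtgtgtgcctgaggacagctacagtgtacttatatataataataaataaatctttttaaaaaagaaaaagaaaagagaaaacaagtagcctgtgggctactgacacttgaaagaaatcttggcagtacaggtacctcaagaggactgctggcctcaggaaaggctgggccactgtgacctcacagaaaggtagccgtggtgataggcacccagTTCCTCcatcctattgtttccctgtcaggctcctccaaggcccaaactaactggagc
Lyz2, chr10:117282223-117282522, minus strand: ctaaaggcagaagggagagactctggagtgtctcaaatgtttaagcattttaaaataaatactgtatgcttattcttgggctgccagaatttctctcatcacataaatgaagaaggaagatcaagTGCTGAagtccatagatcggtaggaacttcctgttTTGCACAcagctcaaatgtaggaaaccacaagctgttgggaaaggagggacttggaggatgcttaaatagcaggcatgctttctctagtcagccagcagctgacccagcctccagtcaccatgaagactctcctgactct
Cd68, chr11:69666121-69666420, minus strand: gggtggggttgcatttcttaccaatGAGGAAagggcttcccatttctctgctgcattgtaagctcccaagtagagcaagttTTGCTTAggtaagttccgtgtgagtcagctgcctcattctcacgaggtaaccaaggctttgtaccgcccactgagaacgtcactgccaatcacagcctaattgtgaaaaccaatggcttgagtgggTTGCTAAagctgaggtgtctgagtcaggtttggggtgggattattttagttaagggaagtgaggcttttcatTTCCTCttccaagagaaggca
The Aif1 window held 1 PU.1 match and none of the others. The Cd68 window held 2 PU.1 and 2 C/EBP matches, and the Lyz2 window 1 C/EBP and 1 Maf match. The Cebpb window, which is 80.7% G and C, held no match to any of the 4 motifs. Of 32851 promoter windows of this length, 28.3% held a PU.1 match, 37.1% a C/EBP match, 19.5% a Maf match and 11.2% a GATA match, so matches of this kind are common. No overlap between motifs was found in the 3 windows shown.

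Values are the log2 signals deposited by the authors, with array medians between 4.84 and 4.96 over all probe sets. No detection calls were used here, so how far a signal stands above background cannot be given, and having few arrays limits the precision. The arrays of HF macrophages without RBC differed most between themselves (root mean square difference 0.24 over all genes, against 0.15 to 0.19 in the other 5 groups). Replicate 1 of that group lay farthest from the other HF macrophage arrays, at a mean distance of 0.26, against 0.20 to 0.22 for the other 5. Results that change without an array are given without it. Nothing in the labels says which cultures were prepared together, so the p values measure the spread between these samples. Differences are log2 differences ± SE from limma fitted to all 12 arrays, with Benjamini-Hochberg adjusted p over all genes, and a gene was called at an adjusted p below 0.05. In such cultures, fewer macrophages and less of a transcript per macrophage cannot be told apart.

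The label of the cells was checked against the same genes. Lyz2 lay between 12.27 and 12.45 and Cd68 between 12.09 and 12.21 on all 12 arrays, near the top of the scale, whose highest value was 13.3. Csf1r was at 9.77 or above, Spi1 at 10.05 or above and Adgre1 at 8.92 or above on every array. Aif1 was at 7.30 or above in chow macrophages but at 5.40 or below in HF macrophages, near the median of the tested genes, which was 5.24 to 5.31 per array.

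**Figure D1:**
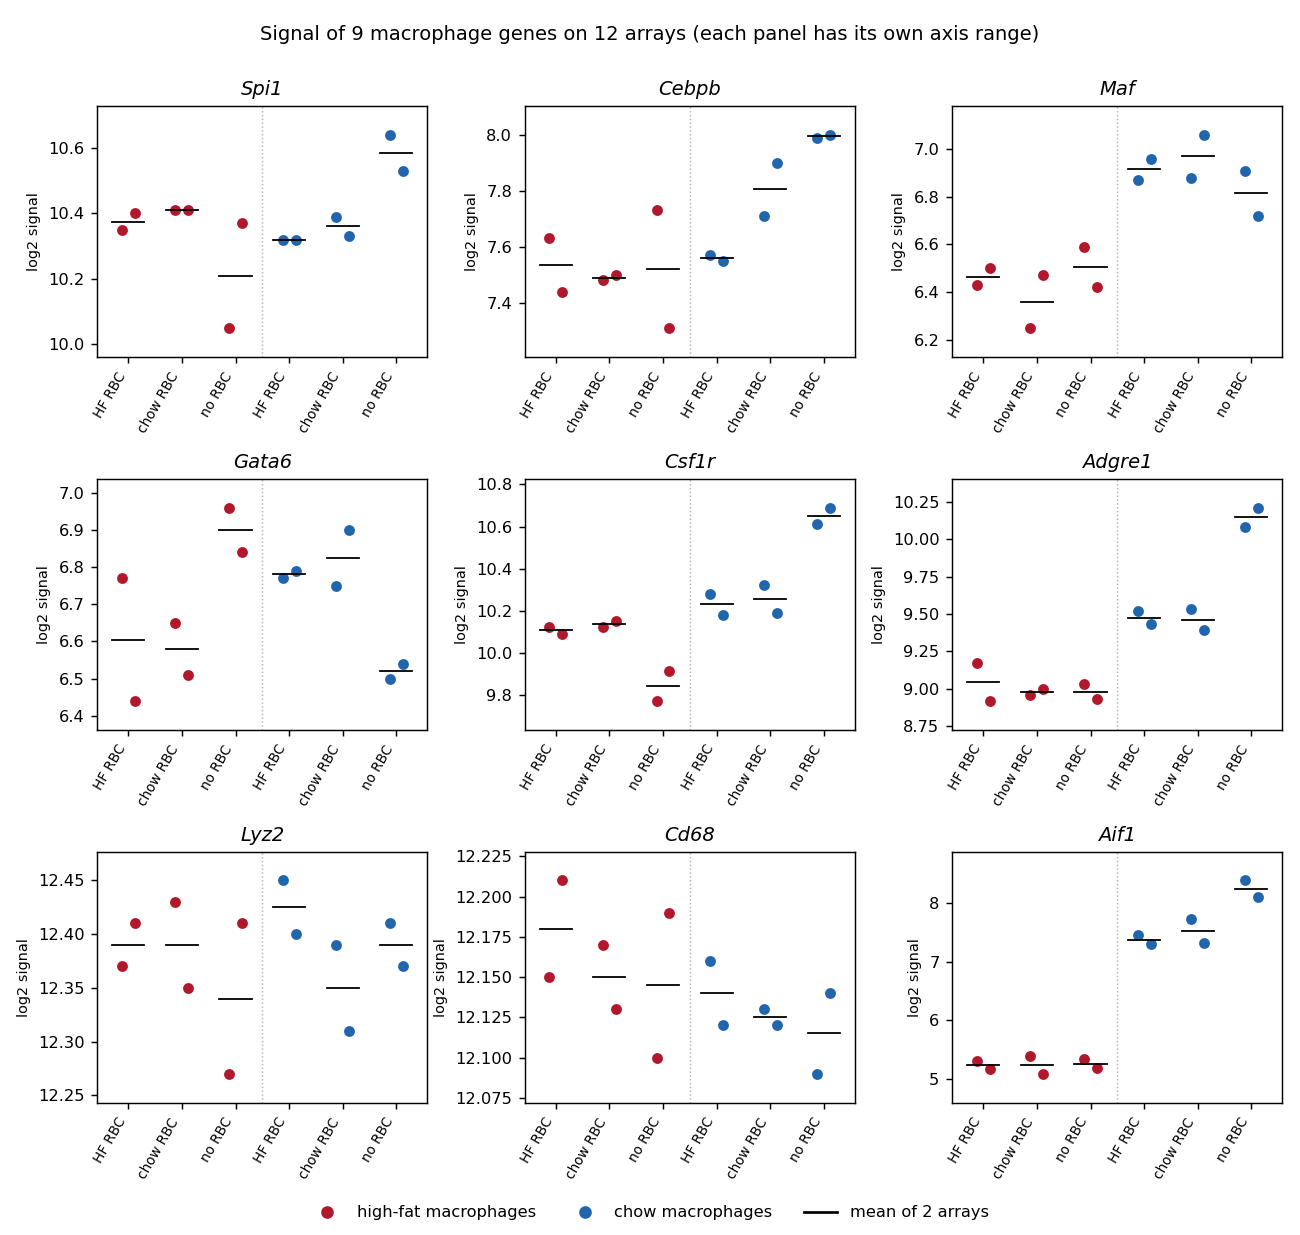
Log2 signal (vertical axes, a range of its own in each panel) of the 9 genes on every array, by group; points are arrays, black lines the means of 2 arrays, red HF macrophages and blue chow macrophages. Aif1 lay between 5.09 and 5.40 on the 6 HF macrophage arrays and between 7.30 and 8.38 on the 6 chow macrophage arrays, while Cd68 spanned 0.11 over all 12.

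Macrophages of HF-fed mice were compared with those of chow-fed mice first without RBC. Of the 9 genes, 5 were lower, 1 was higher and 3 did not pass; over all genes 5.82% were called lower and 8.12% higher (13.9% in either direction). Without replicate 1 or 2 of the unexposed chow macrophages, 3 of the 9 were called. The median difference of the 9 genes was -0.37, against -0.01 over all genes. Aif1, Adgre1 and Csf1r had the largest differences, all negative, and the transcription factor genes Cebpb, Spi1 and Gata6 smaller ones.

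Aif1 differed most. Without RBC it was at 5.34 and 5.18 in HF macrophages, against 8.38 and 8.10 in chow macrophages. With HF RBC it was at 5.30 and 5.17 in HF macrophages, against 7.45 and 7.30 in chow macrophages, and with chow RBC at 5.40 and 5.09, against 7.73 and 7.31. All 6 HF macrophage arrays lay below all 6 chow macrophage arrays, and the HF macrophage values did not separate by RBC. The difference between the macrophage diets was -2.98 ± 0.15 without RBC (7.88-fold lower, adjusted p = 9.3e-09 by limma) and -2.21 ± 0.11 with RBC (4.63-fold lower, adjusted p = 1.6e-08). In the order from the most negative difference, Aif1 stood at rank 27 of 19938 genes without RBC and at rank 10 with RBC. How much of the HF macrophage signal is background is unknown.

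The receptor genes came next. Adgre1 was at 9.03 and 8.93 in HF macrophages without RBC, against 10.08 and 10.21 in chow macrophages without RBC. Its difference was -1.17 ± 0.11 (2.25-fold lower, adjusted p = 4.2e-06 by limma). Csf1r was at 9.77 and 9.91 in HF macrophages without RBC, against 10.61 and 10.69 in chow macrophages without RBC. This was a difference of -0.81 ± 0.10 (1.76-fold lower, adjusted p = 5.5e-05 by limma). For both receptor genes the groups did not overlap, and the call held in 18 of 18 alternative settings.

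The transcription factor genes differed less, and their calls were less stable. Cebpb was at 7.73 and 7.31 in HF macrophages without RBC, against 7.99 and 8.0 in chow macrophages without RBC (-0.48 ± 0.13, adjusted p = 0.023 by limma). It lost its call without replicate 1 or 2 of the unexposed chow macrophages or replicate 2 of the unexposed HF macrophages (adjusted p = 0.095, 0.11 and 0.19), and after quantile normalization (0.068). Spi1 was at 10.05 and 10.37, against 10.64 and 10.53 (-0.37 ± 0.11, adjusted p = 0.038 by limma). The groups did not overlap, but replicate 1 of the HF macrophages lay well below replicate 2, and without it Spi1 was not called (adjusted p = 0.24). The call was also lost without either array of the chow macrophages with HF RBC (0.058 each) or without RBC (0.2 and 0.086), or of the HF macrophages with chow RBC (0.054 each), and with array weights (0.066).
Gata6 went the other way, at 6.96 and 6.84 in HF macrophages without RBC, against 6.50 and 6.54 in chow macrophages without RBC (0.38 ± 0.12, adjusted p = 0.045 by limma). The groups did not overlap, but the call was lost on leaving out any of 10 of the 12 arrays, all but the pair of HF macrophages with HF RBC (adjusted p from 0.051 to 0.17), after quantile normalization (0.086) and with array weights (0.1). Mesothelial cells can express Gata6. Of 14 mesothelial and fibroblast genes, 3 were higher and 1 lower in HF macrophages without RBC, against 8.12% and 5.82% of all genes. The higher were Pdgfra (0.78 ± 0.10), Col1a2, a fibroblast collagen gene (0.69 ± 0.09), and Col1a1 (0.50 ± 0.11), and the lower was Pdpn (-0.52 ± 0.09). Their summed linear signals were 2570 to 2580, against 2940 to 3010 in chow macrophages without RBC. Pdpn, at 10.47 against 10.99, was far brighter than Col1a2, at 7.55 against 6.86. The lower sum therefore goes with Pdpn and not with the other called genes. Which cells made the Pdpn signal was not tested. Wt1, which marks mesothelium, was not among those called. Their part in the Gata6 result was not tested. Maf was at 6.59 and 6.42, against 6.91 and 6.72 (-0.31 ± 0.12, adjusted p = 0.1), and did not pass.

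Lyz2 and Cd68 hardly differed. Lyz2 was at 12.27 and 12.41 in HF macrophages without RBC, against 12.41 and 12.37 in chow macrophages without RBC (-0.05 ± 0.09). Cd68 was at 12.10 and 12.19, against 12.09 and 12.14 (0.03 ± 0.09). Neither passed (adjusted p = 0.83 and 0.89 by limma). Only 6 of 19938 genes had a narrower range over the 12 arrays than Cd68, and 131 a narrower one than Lyz2. Ranges were small among the 26 genes with a mean of 12 or more (median 0.18) and saturation was not analysed here. Lyz1, a close paralog of Lyz2 that in mice is known chiefly from the intestine, did fall: it was at 8.88 and 9.17 in HF macrophages without RBC, against 10.51 and 10.25 in chow macrophages without RBC (-1.36 ± 0.13, adjusted p = 6.9e-06 by limma). How far each probe set also captures the other gene's transcript is not known here.

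With RBC present, 3 of the 9 genes were lower in HF than in chow macrophages, 0 were higher and 6 did not pass, against 2.65% called lower, 2.2% higher and 4.85% in either direction over all genes. Besides Aif1 these were Adgre1 and Maf, and each of the 3 calls held in 18 of 18 alternative settings. Adgre1 was at 9.17, 8.92, 8.96 and 9.0 in HF macrophages with RBC, against 9.52, 9.43, 9.53 and 9.39 in chow macrophages with RBC. The difference was -0.45 ± 0.08 (adjusted p = 0.0028 by limma). Maf was at 6.43, 6.50, 6.25 and 6.47 in HF macrophages with RBC, against 6.87, 6.96, 6.88 and 7.06 in chow macrophages with RBC (-0.53 ± 0.08, adjusted p = 0.0013). The 4 HF macrophage arrays lay below the 4 chow macrophage arrays for both genes. The differences of Csf1r (-0.12 ± 0.07), Cebpb (-0.17 ± 0.09), Gata6 (-0.21 ± 0.08) and Spi1 (0.05 ± 0.08) did not pass, nor did those of Lyz2 and Cd68 (0.00 ± 0.07 and 0.03 ± 0.06).

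**Figure D2:**
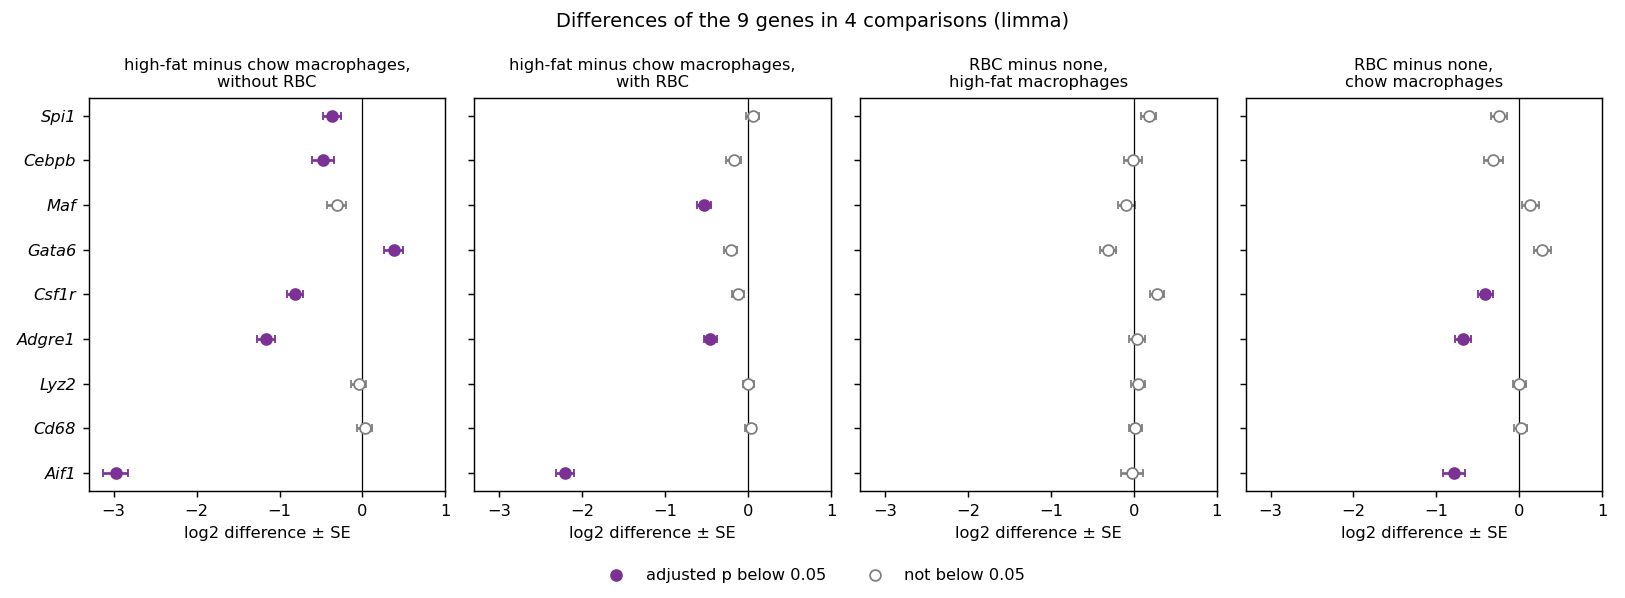
Log2 differences ± SE (horizontal axis) of the 9 genes in 4 comparisons, from limma on 12 arrays; filled points passed an adjusted p below 0.05. Aif1 lay at -2.98 without RBC and -2.21 with RBC between the macrophage diets, and no gene passed for RBC against none in HF macrophages.

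Exposure to RBC was then compared with none within each macrophage diet, averaging both kinds of RBC. In chow macrophages 3 of the 9 genes fell, 0 rose and 6 did not pass; over all genes 4.51% fell, 8.22% rose and 12.7% changed in either direction. Aif1 was at 7.45, 7.30, 7.73 and 7.31 with RBC, against 8.38 and 8.10 without (-0.79 ± 0.13, adjusted p = 0.0011 by limma). Adgre1 was at 9.52, 9.43, 9.53 and 9.39 with RBC, against 10.08 and 10.21 without (-0.68 ± 0.09, adjusted p = 0.00031). Csf1r was at 10.28, 10.18, 10.32 and 10.19 with RBC, against 10.61 and 10.69 without (-0.41 ± 0.09, adjusted p = 0.0061). All 4 exposed arrays lay below both unexposed arrays for each of these genes. The Csf1r call was lost without replicate 2 of the unexposed chow macrophages (adjusted p = 0.095).

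Cebpb (-0.31 ± 0.11, adjusted p = 0.083) and Spi1 (-0.24 ± 0.09, adjusted p = 0.11) were lower on all 4 exposed than on both unexposed chow macrophage arrays but did not pass. Each passed when either array of the unexposed HF macrophages, which enter this comparison only through the estimate of spread, was left out (0.029 for Cebpb and 0.048 for Spi1), which made 5 called genes of the 9. Spi1 also passed after quantile normalization (0.034) and with an intensity trend and robust prior (0.042), and Cebpb with array weights (0.039). Gata6 was at 6.77, 6.79, 6.75 and 6.90 with RBC, against 6.50 and 6.54 without (0.28 ± 0.10, adjusted p = 0.086), higher on all 4 exposed arrays but not called, except with the replicate number as a block within each macrophage diet (0.05). Maf (0.13 ± 0.10), Lyz2 (0.00 ± 0.08) and Cd68 (0.02 ± 0.08) did not pass.

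In HF macrophages 0 of the 9 genes passed with RBC, where limma called 0.878% of all genes higher, 0.201% lower and 1.08% in either direction (2 of the 9 had an unadjusted p under 0.05, and an intensity trend with a robust prior called 1, Csf1r). Csf1r was at 10.12, 10.09, 10.12 and 10.15 with RBC, against 9.77 and 9.91 without (0.28 ± 0.09, adjusted p = 0.2). Gata6 was at 6.77, 6.44, 6.65 and 6.51 with RBC, against 6.96 and 6.84 without (-0.31 ± 0.10, adjusted p = 0.24). For both genes the exposed and unexposed arrays did not overlap. Aif1 and Adgre1 were at -0.02 ± 0.13 and 0.04 ± 0.09, Spi1 at 0.18 ± 0.09, Maf at -0.09 ± 0.10, Cebpb at -0.01 ± 0.11, Lyz2 at 0.05 ± 0.08 and Cd68 at 0.02 ± 0.08.

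Whether the response to RBC differed between the macrophage diets was tested as an interaction, the response of HF macrophages minus that of chow macrophages. It passed for 4 of the 9 genes, 3 with a more positive response in HF macrophages and 1 with a more negative one, against 2.57% and 3.1% of all genes (5.67% in either direction). The difference in response was 0.71 ± 0.13 for Adgre1 (adjusted p = 0.0056 by limma), 0.69 ± 0.12 for Csf1r (0.0035), 0.77 ± 0.19 for Aif1 (0.026) and -0.59 ± 0.14 for Gata6 (0.027). Of 14 mesothelial and fibroblast genes, 1 had a more positive response in HF macrophages and 4 a more negative one, among them Pdgfra (-0.65 ± 0.12) and Wt1 (-0.53 ± 0.12). Pdgfra was also the only gene of that list called for RBC against none in HF macrophages (-0.42 ± 0.09). What these genes' cells contribute to the Gata6 interaction was not tested. Aif1 was near the median of the tested genes on all HF macrophage arrays, with or without RBC, so whether a fall could have shown there was not tested. The calls of Adgre1 and Csf1r held in 19 of 19 alternative settings. That of Aif1 was lost without replicate 1 of the unexposed chow macrophages (0.13), replicate 2 of the unexposed HF macrophages (0.087), replicate 2 of the chow macrophages with HF RBC (0.064), replicate 1 of the HF macrophages with chow RBC (0.055) and replicate 1 of the HF macrophages with HF RBC (0.052), and with array weights (0.051). That of Gata6 was lost without any of 7 arrays (0.057 to 0.097), which were both of the unexposed chow macrophages, both of the chow macrophages with HF RBC, replicate 2 of the chow and of the HF macrophages with chow RBC, and replicate 1 of the unexposed HF macrophages, and after quantile normalization (0.059). Without replicate 1 of the unexposed chow macrophages or replicate 2 of the chow macrophages with HF RBC, 2 of the 9 were called. Spi1 (0.42 ± 0.13, adjusted p = 0.094), Cebpb (0.30 ± 0.16), Maf (-0.22 ± 0.14), Lyz2 (0.05 ± 0.12) and Cd68 (0.00 ± 0.11) did not pass. Spi1 passed without replicate 2 of the unexposed HF macrophages (0.016), after quantile normalization (0.035) and with an intensity trend and robust prior (0.022). Averaged over the macrophage diets, 2 of the 9 genes were lower with RBC, Aif1 (-0.41 ± 0.09, adjusted p = 0.016 by limma) and Adgre1 (-0.32 ± 0.07, adjusted p = 0.01), averages over responses that differ. Over all genes 2.2% were called lower there, 5.23% higher and 7.42% in either direction, and quantile normalization moved the share of higher calls to 57.5%, in place of 70.4%. Adgre1 was not called there without replicate 2 of the unexposed chow macrophages (0.07), nor Aif1 without replicate 1 of the unexposed chow or of the unexposed HF macrophages (0.082 and 0.079). All of these contrasts draw on the same unexposed arrays.

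Some markers of other cells moved with these comparisons, and their part in the results was not tested. Shares of all genes called higher and lower were 8.12% and 5.82% for HF against chow macrophages without RBC and 2.2% and 2.65% with RBC. For RBC against none they were 8.22% and 4.51% in chow macrophages and 0.878% and 0.201% in HF macrophages. A few called genes in lists this short need not stand out from these shares. With RBC, 6 of 16 neutrophil genes rose and 0 fell in HF macrophages, and 5 rose and 1 fell in chow macrophages. Among them S100a9, which encodes a calcium-binding protein abundant in neutrophils, rose by 6.28 ± 0.12 in HF and by 5.24 ± 0.12 in chow macrophages. The summed linear signal of the neutrophil genes was 2980 to 4960 with RBC and 1630 to 1860 without in HF macrophages, and 3400 to 4030 with RBC and 1980 to 2140 without in chow macrophages. Neutrophils express Lyz2 and Spi1 as well. Of 9 platelet genes measured (12 listed), 6 rose in HF and 4 in chow macrophages with RBC. Sums were 1540 to 2160 against 1060 to 1080 in HF macrophages and 2330 to 3050 against 2220 to 2270 in chow macrophages. Without RBC, Pf4 was at 9.59 in HF and 10.90 in chow macrophages. Ppbp was at 4.28 and 5.42 there, so Pf4 outweighs Ppbp in those sums. Pf4 was thus bright with no RBC added, and which cells made its signal was not tested. With RBC, Ppbp rose by 5.06 ± 0.26 in HF and 3.82 ± 0.26 in chow macrophages. B cell genes moved in the direction of Aif1: 7 of 11 were lower in HF than in chow macrophages without RBC, 4 of 11 were lower in HF than in chow macrophages with RBC, and 4 of 11 fell in chow macrophages with RBC, and 0 were higher in any of these. Their sums were 194 to 224 in HF macrophages with or without RBC, 255 to 298 in chow macrophages with RBC and 350 to 386 in chow macrophages without. In every group 7 of the 11 B cell genes lay below the median of the tested genes on each array. Without RBC, HF against chow macrophages differed in 1 of 10 dendritic cell genes (lower), 2 of 6 eosinophil genes (1 higher, 1 lower), 0 of 13 T and NK cell genes and 0 of 9 mast cell and basophil genes; 5 of 16 neutrophil and 3 of 9 platelet genes were lower and 0 higher. Of 14 mesothelial and fibroblast genes, 4 rose in chow macrophages with RBC, Wt1 by 0.47 ± 0.09, with sums of 3020 to 3210 with RBC and 2940 to 3010 without. With RBC in both diets, where Aif1, Adgre1 and Maf were called, HF macrophages were also lower in 2 of 16 neutrophil genes. Of the 14 mesothelial and fibroblast genes 2 were lower, Wt1 (-0.33 ± 0.07) and Dcn (-0.32 ± 0.08). Of 10 dendritic cell genes 1 was lower, the chemokine receptor gene Ccr7 (-1.05 ± 0.10), and no gene of these 3 lists was higher. Of 6 eosinophil genes, 2 were higher there, Siglecf (0.40 ± 0.08) and Ear6 (0.28 ± 0.07), and 1 lower, Ccr3 (-0.68 ± 0.11). Lower were also 1 of 9 platelet genes, Pf4 (-1.06 ± 0.07), and 1 of 9 mast cell and basophil genes, with 0 higher in either list. Of 13 T and NK cell genes 0 were called. Of 13 erythroid genes measured (16 listed), 1 rose in HF macrophages with RBC, Alas2, which encodes the erythroid enzyme of haem synthesis (1.31 ± 0.21), and 2 rose in chow macrophages with RBC, Alas2 (0.86 ± 0.21) and Bpgm (0.95 ± 0.12), and 0 fell in either. Without RBC, Bpgm was higher (0.75 ± 0.14) and the transferrin receptor gene Tfrc lower (-0.60 ± 0.13) in HF than in chow macrophages, and with RBC Tfrc was lower (-0.55 ± 0.09). The summed erythroid signal was 733 to 932 with RBC and 811 to 904 without in HF macrophages. In chow macrophages it was 997 to 1060 with RBC and 1100 to 1170 without. There Tfrc was at 9.43 with RBC and 9.71 without, Alas2 at 5.83 and 4.97, and Bpgm at 5.69 and 4.74. On the linear scale Tfrc therefore outweighs Alas2 and Bpgm, and the sum does not show whether dimmer erythroid genes rose. Which cells made the Tfrc signal was not tested.

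The order of the 6 groups differed by gene; it was drawn from the group means themselves, and a gap over 2 SE between neighbours is a description, not a call. For Aif1, chow macrophages without RBC stood highest, chow macrophages with either RBC lay 0.72 or more below them, and the 3 HF macrophage groups, which did not differ beyond their spread, lay a further 2.11 down. Adgre1 had the same order of tiers, with steps of 0.67 and 0.41. For Csf1r the highest group was again chow macrophages without RBC, no neighbours among the 4 groups with RBC differed by over 2 SE, and HF macrophages without RBC were lowest, at a gap of 0.26 from HF macrophages with HF RBC, although RBC against none was not called in HF macrophages. For Maf the 3 chow macrophage groups stood above the 3 HF macrophage groups, with a gap of 0.31 between the lowest chow and the highest HF macrophage group, both without RBC, which was over 2 SE but not called. No neighbouring groups differed by over 2 SE for Gata6, Spi1, Cebpb, Lyz2 or Cd68.

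The diet of the RBC donor made no called difference. HF against chow RBC called 0 of the 9 genes in either macrophage diet or on average, where limma called 0.01% of all genes on average, 0% in chow macrophages (555 genes at an unadjusted p under 0.05) and 0.0251% in HF macrophages; none of the 9 had an unadjusted p under 0.05 in any of these. The largest difference among the 9 was that of Cebpb in chow macrophages, -0.24 ± 0.13 (7.57 and 7.55 with HF RBC, against 7.71 and 7.90 with chow RBC), and the next that of Aif1 there, -0.14 ± 0.15. The Cebpb arrays of the RBC diets did not overlap, but the difference had an unadjusted p of 0.082 by limma and was not called. The SE within a macrophage diet was 0.09 to 0.15.

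Genes with the most similar pattern were found by the root mean square difference of log2 values over the 12 arrays, each gene centred on its mean. Aif1, whose own values spread by 1.27 on this measure, was closest to Casp4 (0.22), H2-M2 (0.22) and Ms4a4a (0.26). Adgre1 (own spread 0.42) was closest to Abcc1 (0.11), Sqstm1 (0.11) and Irf4 (0.12), and Csf1r (0.25) to Eif6 (0.05), Jarid2 (0.07) and Sh2b2 (0.08). Maf (0.25) was closest to Psmg3, Igf1 and Mrpl32, all at 0.11. The remaining 3 members called in any comparison had own spreads of 0.13 to 0.21, and their nearest genes lay at 0.05 to 0.08. These were Gna13, Camta2 and Plaa for Spi1, Ccno, Zdhhc19 and Trim56 for Cebpb, and Slc19a2, Rfesd and BC055324 for Gata6. For Csf1r, Maf and these 3 members the distances lay below the member's residual SD in the fit (0.10 to 0.13). They were also the smallest over all tested genes, so they do not by themselves show a shared pattern.

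Other macrophage genes were counted in 5 lists of general knowledge. The shares of all genes called higher and lower, against which their counts stand, were 8.12% and 5.82% for HF against chow macrophages without RBC, 2.2% and 2.65% with RBC, 8.22% and 4.51% for RBC against none in chow macrophages, and 0.878% and 0.201% in HF macrophages. The receptor Csf1r has its ligand among them: Csf1, the macrophage growth factor, was at 8.57 and 8.66 in HF macrophages without RBC, against 7.11 and 7.01 in chow macrophages without RBC (1.55 ± 0.10, adjusted p = 1e-07 by limma). It was at 8.50, 8.65, 8.30 and 8.35 in chow macrophages with RBC (1.39 ± 0.09 against no RBC, adjusted p = 1.7e-07). Csf1 was thus lowest in the group in which Csf1r was highest, and its response to RBC was smaller in HF macrophages (-1.06 ± 0.12, adjusted p = 0.00012). Of the 15 growth factor and receptor genes, 3 were higher and 4 lower in HF macrophages without RBC, among them the fractalkine receptor gene Cx3cr1 (-1.37 ± 0.14), the granulocyte growth factor receptor gene Csf3r (-0.92 ± 0.12) and the receptor gene Tgfbr2 (0.58 ± 0.12). Their median was -0.15. In chow macrophages Csf1 alone of these 15 rose with RBC and 0 fell.

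**Figure D3:**
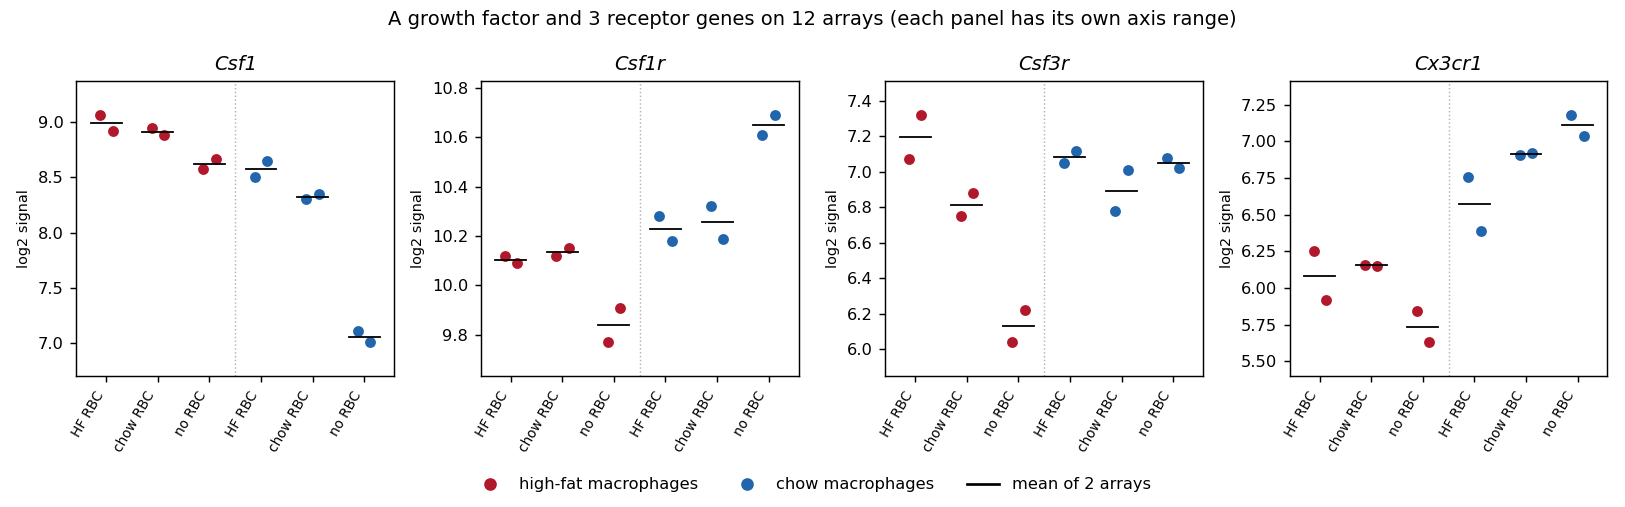
Log2 signal (vertical axes, a range of its own in each panel) of Csf1 and of the receptor genes Csf1r, Csf3r and Cx3cr1 on every array, by group; points are arrays, black lines the means of 2 arrays. Csf1 lay at 7.11 and 7.01 in chow macrophages without RBC and at 8.30 or above on the other 10 arrays.

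Of 33 other transcription factor genes measured (34 listed), 2 were higher, 11 lower and 20 did not pass in HF against chow macrophages without RBC, with a median of -0.20. The genes with the smallest p values were the ETS family member Ets2 (-1.50 ± 0.10), the interferon regulatory factor gene Irf4 (-1.28 ± 0.11), the red pulp macrophage factor Spic (-1.20 ± 0.18) and the oxysterol receptor gene Nr1h3 (-0.71 ± 0.10), with adjusted p at most 0.00033 by limma. In chow macrophages with RBC, 3 of the 33 rose and 9 fell, among them Ets2 (-0.97 ± 0.09) and Irf4 (-0.82 ± 0.09), while Id3, an inhibitor of basic helix-loop-helix factors, rose by 0.71 ± 0.10 and Cebpa, a partner of PU.1 in myeloid cells, by 0.42 ± 0.09. In HF macrophages with RBC 1 rose, the immediate early gene Egr1 (0.66 ± 0.10), and 0 fell. With RBC in both diets, 1 of the 33 was higher and 7 lower in HF macrophages, among them Mitf (-0.41 ± 0.06) and Ets2 (-0.39 ± 0.07).

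Genes named for resident peritoneal macrophages moved both ways. In HF against chow macrophages without RBC, 4 of 25 measured (27 listed) were higher and 11 lower, with a median of -0.26. The endothelin receptor gene Ednrb (-2.20 ± 0.11), Arg1 (-1.93 ± 0.15) and the acute phase gene Saa3 (-1.66 ± 0.10) were lower, and the growth factor gene Hgf was higher (1.31 ± 0.12). In chow macrophages with RBC 6 rose and 7 fell, among them Hgf (1.80 ± 0.10) and Ednrb (-1.17 ± 0.09). With RBC in both diets 1 was higher and 7 lower in HF macrophages, with Arg1, the arginine-degrading enzyme gene, at -2.58 ± 0.11. Of 12 measured genes of monocyte-derived macrophages (15 listed), 2 were higher and 6 lower in HF macrophages without RBC (median -0.51). Retnla, a marker of alternative activation, was at -2.96 ± 0.21 and Fcgr1, the high-affinity Fc receptor gene, at -1.81 ± 0.11, while the mannose receptor gene Mrc1 was at 0.78 ± 0.10. With RBC in both diets 0 were higher and 6 lower.

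Of 34 pan-macrophage surface and phagosome genes, 5 were higher and 9 lower in HF macrophages without RBC, with a median of 0.04. Cd14, the endotoxin co-receptor gene, was at -1.82 ± 0.14, the scavenger receptor gene Marco at -1.77 ± 0.14 and the sialic acid-binding receptor gene Siglec1 at -1.44 ± 0.09. In chow macrophages with RBC 5 rose and 5 fell, among them Siglec1 (-0.70 ± 0.08) and the efferocytosis receptor gene Mertk (0.66 ± 0.10). In HF macrophages with RBC 3 rose and 0 fell, among them Cd14 (1.41 ± 0.12). With RBC in both diets 0 of the 34 were higher and 7 lower in HF macrophages, among them the complement gene C1qc (-0.83 ± 0.07). A gene can stand in more than 1 list (Fcgr1 does), and medians over all genes were within 0.03 of 0 in these comparisons.

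**Figure D4:**
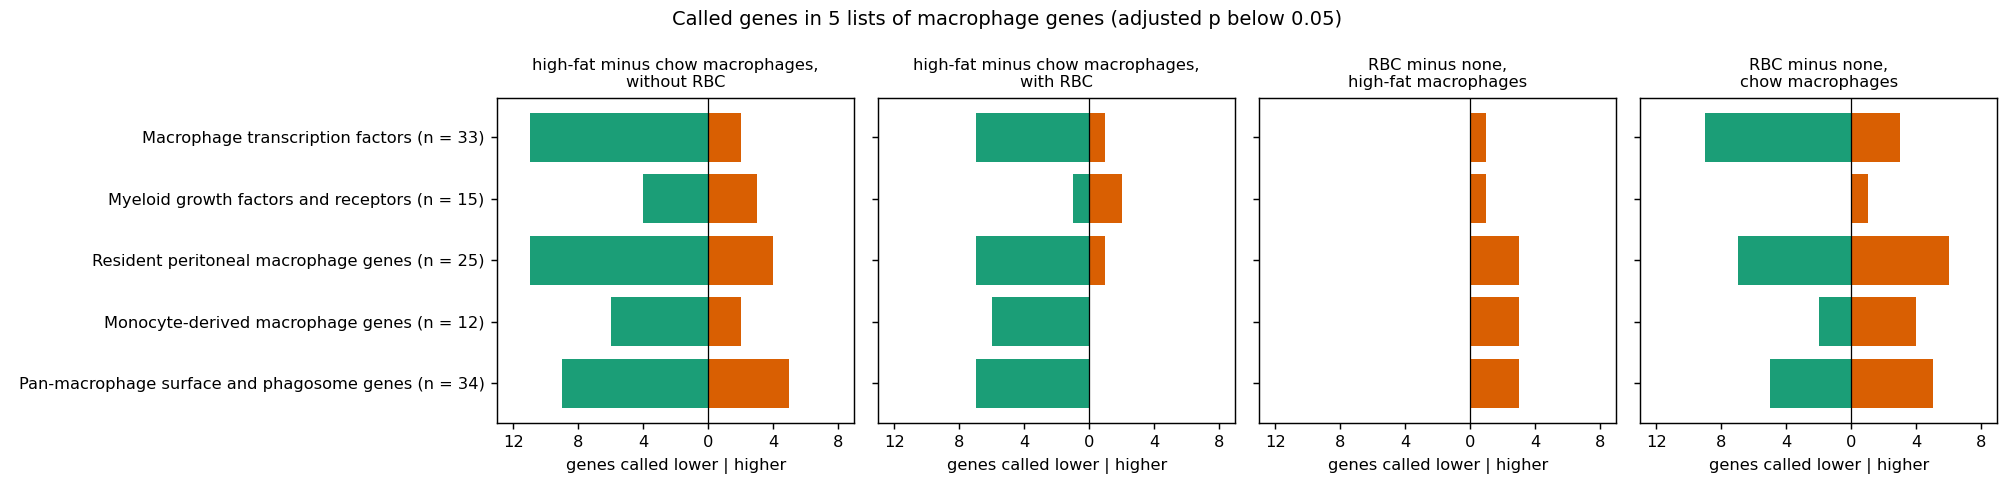
Number of genes called lower (left, green) and higher (right, orange) in 5 lists of macrophage genes in 4 comparisons; n is the number measured. In HF against chow macrophages without RBC, 11 of 33 transcription factor genes were lower and 2 higher, against 5.82% and 8.12% of all genes. For RBC against none in HF macrophages no list had a gene called lower. Of all genes 0.201% were called lower there, so lists this short need hold none.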

How the data were processed

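RNA of each culture was measured on an Affymetrix Mouse Gene ST array, 12 in all. The authors deposited log2 signals for 35556 of the 35557 probe sets in their table. That scale was read from the values (1.46 to 13.3); the background correction, summarization and normalization are not given in the sources used here. GEO's platform annotation listed 1 symbol for 21789 probe sets, several for 1621, and did not list 12146. Probe sets with several symbols were left out, and a gene with several probe sets was represented by the one with the highest mean, leaving 19938 genes. Means of the 6 groups were fitted with limma 3.58.1 (R 4.3.3, lmFit and eBayes, 6 residual and 7.69 prior degrees of freedom), 9 comparisons were drawn from this fit, and p-values were adjusted over all genes by the Benjamini-Hochberg method. The fitting steps were tested on simulated data. All 9 members were named in every comparison; of other lists, up to 4 called genes with the smallest p were named per comparison, and the 3 genes nearest in pattern per called member. The members and lists were chosen with earlier results of these data known. Alternatives were quantile normalization, removing the lowest 33.3% of genes, an intensity trend with a robust prior, array weights, the replicate number as a block, averaging the probe sets of each gene, a threshold of 0.1, and leaving out each array. Summed signals of marker lists are sums of linear values. RefSeq promoters were matched by symbol for 4 of the 9 genes.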

Additional observations from a re-analysis of the deposited data

Results flagged for a closer look

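The response to RBC, HF minus chow macrophages, differed between the macrophage diets by an interaction term for 4 genes. It was 0.77 for Aif1, 0.71 for Adgre1, 0.69 for Csf1r and -0.59 for Gata6 (log2). For Csf1r and Gata6 the responses of HF and chow macrophages had opposite signs, 0.28 and -0.41 for Csf1r and -0.31 and 0.28 for Gata6. Of these responses only that of Csf1r in chow macrophages passed on its own. The call of the Gata6 interaction was lost without any of 7 arrays and after quantile normalization. For Aif1 and Adgre1 the HF macrophage response lay within 1 SE of 0. Aif1 was near the median of the tested genes on all HF macrophage arrays, where background is unknown, and whether a fall could have shown there was not tested.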

How the results depend on the processing

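At a threshold of 0.1, 5 of the 9 genes were called for RBC against none in chow macrophages, and an intensity trend with a robust prior called 1 in HF macrophages. Leaving out 1 array at a time gave 3 to 6 called genes for HF against chow macrophages without RBC, 2 to 5 for RBC against none in chow macrophages, 1 to 3 averaged over both macrophage diets and 2 to 4 for the interaction. Quantile normalization turned the sign of small differences: Adgre1 with RBC in HF macrophages (-0.0151), Lyz2 with RBC in chow macrophages (-0.0355) and between macrophage diets with RBC (-0.0382), and Cd68 with RBC in HF (-0.0004) and chow macrophages (-0.0499) and between macrophage diets without RBC (-0.0478). The cause was not tested. Leaving out single arrays also turned signs of uncalled differences. For RBC against none in HF macrophages the ranges were -0.0260 to 0.1002 for Adgre1, -0.2154 to 0.1993 for Cebpb, -0.0218 to 0.1200 for Lyz2, -0.0249 to 0.0651 for Cd68 and -0.1032 to 0.0550 for Aif1. In chow macrophages they were -0.0224 to 0.0227 for Lyz2 and -0.0054 to 0.0411 for Cd68. For the interaction they were -0.0220 to 0.1199 for Lyz2 and -0.0428 to 0.0473 for Cd68. Between macrophage diets without RBC they were -0.1172 to 0.0246 for Lyz2 and -0.0153 to 0.0748 for Cd68, and with RBC -0.0183 to 0.0235 for Lyz2.

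Arrays of different groups share replicate numbers. Over 15 pairs of groups the correlations of deviations ran from -0.23 to 0.34, and 2 exceeded 0.1. These 2 were among the 6 pairs within a macrophage diet, where the correlations ran from -0.08 to 0.34. Whether arrays with the same number were prepared together was not tested. With the replicate number as a block, 5 genes in place of 6 were called for HF against chow macrophages without RBC, Gata6 falling out at an adjusted p of 0.051 (limma). A block within each macrophage diet called 4 genes in place of 3 for RBC against none in chow macrophages, the added gene being Gata6 (adjusted p = 0.05, limma).

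Over all genes, a threshold of 0.1 called 3919 genes in place of 2539 for RBC against none in chow macrophages, 336 in place of 215 in HF macrophages and 2547 in place of 1480 on average, and array weights called 101 in HF macrophages. In the settings that moved the count and kept all arrays, HF against chow RBC called 1 to 11 genes on average in place of 2, 1 and 2 in chow macrophages in place of 0, and 3 to 13 in HF macrophages in place of 5. Leaving out 1 array gave 1600 to 2746 genes for macrophage diet without RBC in place of 2780, 564 to 1199 with RBC in place of 967, 956 to 3093 for RBC against none in chow macrophages, 120 to 652 in HF macrophages, 681 to 2812 on average and 558 to 1115 for the interaction in place of 1131. For HF against chow RBC it gave 1 to 4 on average, 0 to 2 in chow macrophages and 0 to 6 in HF macrophages, with 0 without replicate 2 of the HF macrophages with HF RBC. With 2 arrays a group and unknown background, small differences of dim genes are not resolved.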

Other observations

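Genes beside Aif1 and Adgre1 on chromosome 17 were looked at after the members' values had been seen. Lst1, a leukocyte transcript gene next to Aif1, was lower in HF than in chow macrophages by -2.00 ± 0.13 without RBC and -1.60 ± 0.09 with RBC (adjusted p = 1.5e-07 and 1.4e-07 by limma). On its other side, Prrc2a (-0.28 ± 0.14), Bag6 (-0.02 ± 0.12) and Apom (0.20 ± 0.14) did not pass without RBC. Beyond Lst1, Ltb was lower without RBC (-0.43 ± 0.13, adjusted p = 0.037 by limma) and did not pass with RBC (-0.08 ± 0.09). Tnf, the inflammatory cytokine gene after Ltb, was lower without RBC (-2.16 ± 0.11, adjusted p = 8.4e-09 by limma). It did not pass with RBC (-0.16 ± 0.08, adjusted p = 0.31). Lta, which follows Tnf, did not pass without RBC (-0.07 ± 0.14) or with RBC (-0.02 ± 0.10). Next to Adgre1, Vav1 was lower without RBC (-0.70 ± 0.11, adjusted p = 0.00073) and at 0.01 ± 0.08 with RBC (adjusted p = 0.97), while Gpr108 and Vmn2r120 did not pass in either.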
